A study of Mus musculus with 9 samples.

Results

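The transcripts described here are those of 9 enzymes and enzyme subunits of the tricarboxylic acid (TCA) cycle, namely Cs, Idh3a, Idh3b, Idh3g, Ogdh, Suclg1, Sucla2, Fh1 and Mdh2. They were taken by symbol from a table of raw counts with 55401 rows, each symbol occurred once, and all 9 were among the 19051 genes tested. The table holds total heart RNA of 9 libraries in 3 groups of 3. Control hearts were from wild-type (WT) mice and form the sham-operated group. TAC hearts were from WT mice with transverse aortic constriction, an operation that narrows the aortic arch and so raises the pressure the left ventricle works against, and KO-TAC hearts were from loaded c-Myc flox/flox mice that carried Tcf21 iCre. This Cre is activated by tamoxifen and deletes Myc in cells that express Tcf21, chiefly cardiac fibroblasts, so heart muscle cells of the KO-TAC group are not the target of the deletion. Both TAC groups are titled 12 weeks, the mice were males operated on at 8 to 12 weeks of age, and the knockout line was given tamoxifen at 45 mg/kg on 5 days. The sources used here do not give whether WT mice received tamoxifen, and neither knockout hearts without TAC nor Cre controls without the floxed allele were analysed here, so tamoxifen, Cre and Myc deletion cannot be told apart in the comparisons with KO-TAC. Since no label ties a library to a mouse of its own, p-values here measure only the spread between these samples, which may be technical in part.

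The TCA cycle runs in the mitochondrial matrix and oxidises the acetyl group of acetyl-CoA to carbon dioxide, passing the electrons to NADH and to the succinate dehydrogenase of the respiratory chain. Heart muscle, which is densely packed with mitochondria, feeds the cycle mainly from fatty acids and makes most of its ATP through it. Cs encodes citrate synthase, which joins acetyl-CoA to oxaloacetate. Idh3a, Idh3b and Idh3g encode the catalytic subunit and both other subunits of the NAD-dependent isocitrate dehydrogenase. Ogdh encodes the E1 subunit of the 2-oxoglutarate dehydrogenase complex. Suclg1 encodes the alpha subunit shared by both succinyl-CoA ligases, and Sucla2 the beta subunit of the ATP-forming one. Fh1 encodes fumarase and Mdh2 mitochondrial malate dehydrogenase, which closes the cycle.

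Sequences upstream of 4 members, and a window from Sucla2, are shown because they differ in the promoter elements they hold. They include the members nearest to (Fh1) and farthest from (Idh3g and Cs) the mean of the 9 over the hearts. RefSeq promoters of GRCm38.p6 matched 8 of the 9 members. The 250 bases before each annotated start were searched on both strands for GGGCGG (GC box), CCAAT (bound by nuclear factor Y), CACGTG (the E-box bound by Myc and Max), the palindromic motif of nuclear respiratory factor 1, CCGGAAGT (ETS factors, GABP among them) and TCAAGGTCA (estrogen-related receptors) and the shorter AAGGTCA, which lies inside it. Matches are in capitals in the lines that follow, and the Idh3g line holds none. Those of Cs, Ogdh and Fh1 end at the base before the RefSeq start (for Ogdh the most upstream of 6 starts), and the Idh3g line is the whole stretch between the starts of Idh3g and of Ssr4, a divergent gene for a subunit of the endoplasmic reticulum translocon-associated complex.
Cs, chr10:128337477-128337726, plus strand: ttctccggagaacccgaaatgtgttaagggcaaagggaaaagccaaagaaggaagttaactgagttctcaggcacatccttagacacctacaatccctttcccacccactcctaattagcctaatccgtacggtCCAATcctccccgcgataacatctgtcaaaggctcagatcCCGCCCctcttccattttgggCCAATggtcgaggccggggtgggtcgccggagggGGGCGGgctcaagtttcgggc
Ogdh, chr11:6291347-6291596, plus strand: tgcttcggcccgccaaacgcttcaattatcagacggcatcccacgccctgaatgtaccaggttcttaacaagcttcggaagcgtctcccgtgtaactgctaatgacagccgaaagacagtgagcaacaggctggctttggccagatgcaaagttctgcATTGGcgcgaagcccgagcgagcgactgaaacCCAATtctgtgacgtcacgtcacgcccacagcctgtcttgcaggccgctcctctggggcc
Fh1, chr1:175625636-175625885, minus strand: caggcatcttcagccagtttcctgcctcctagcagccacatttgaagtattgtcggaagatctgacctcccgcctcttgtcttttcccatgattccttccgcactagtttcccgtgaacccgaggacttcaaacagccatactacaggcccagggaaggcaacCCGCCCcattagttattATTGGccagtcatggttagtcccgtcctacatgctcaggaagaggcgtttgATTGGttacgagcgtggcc
Idh3g, chrX:73786898-73787027, minus strand: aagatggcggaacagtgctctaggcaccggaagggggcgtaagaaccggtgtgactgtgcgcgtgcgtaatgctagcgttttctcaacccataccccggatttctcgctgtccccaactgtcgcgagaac
Sucla2, chr14:73552759-73552788, plus strand: ctgcgtctctGCGCCTGCGCggtgcccagg
The Sucla2 line is a window of 30 bases around its match to the nuclear respiratory factor 1 motif, 17 bases before the RefSeq start. This start lies inside the GENCODE gene, which begins at 73525319, and the bases searched overlap an annotated untranslated region of Sucla2. The nuclear respiratory factor 1 motif was found for 1 matched member and in 3.74% of all 32851 promoters. GC boxes were found for 5 of the 8 (Cs, Fh1, Mdh2, Ogdh and Sucla2) and in 32.7% of all promoters, and CCAAT for 4 (Cs, Fh1, Idh3b and Ogdh) and in 33.9%. CACGTG was found only before downstream starts of Ogdh, and in 6.02% of all promoters. No matched member had the ETS, estrogen-related receptor or shorter receptor letters in this window, which 2.88%, 0.387% and 4.08% of promoters had. Members were counted over any of their starts and the background over single promoters, so these shares are not like for like. A match is a description of the letters, not a bound site.

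Total counts per library were 59702513 to 109162107, and mitochondrially encoded genes took 23.8% to 38.5% of them. Values below are CPM, counts scaled by library size with TMM factors. The lowest member count, 2392 for Suclg1 in TAC replicate 3, makes counting error small beside the spread between hearts. The hearts of the TAC group stood apart from one another: TAC replicate 3 held cardiomyocyte markers (14 genes such as Myh6, Tnnt2 and Mb) at a summed 16499 CPM, TAC replicate 1 at 55430 CPM and TAC replicate 2 at 106054 CPM, against 93909 to 96595 CPM in control hearts and 57276 to 91930 CPM in KO-TAC hearts. The sums hide unequal moves of single markers, of which 13 had a lower and 1 a higher mean in TAC than in control. In TAC replicate 1 Atp2a2 was at 2370 CPM, against 12359 to 13447 CPM in control hearts. Tnnc1 was at 2105.5 CPM there, against 1059 to 1339 CPM. None of the 14 markers was at 0 throughout, so the labelled tissue was present. Myc, the targeted gene, was at 2.06 ± 0.463 CPM in control hearts, 9.79 ± 4.06 CPM in TAC hearts and 3.61 ± 1.53 CPM in KO-TAC hearts (mean ± SD, n = 3 each), and RNA of cells without Cre was counted too. In RNA of whole hearts, fewer cells of a type and less RNA per cell cannot be told apart.

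All 9 TCA cycle transcripts were held within a narrow range in control hearts and spread widely in TAC hearts. As a share of the control mean, the 9 members lay between 95.3% and 105% in each control heart. They lay between 24.5% and 69.5% in TAC replicate 1, between 102% and 119% in TAC replicate 2 and between 5.61% and 26.1% in TAC replicate 3. In KO-TAC replicates 1, 2 and 3 they lay at 35.2% to 63.3%, 62.3% to 102% and 91.0% to 98.2%. Every member was below its lowest control value in TAC replicates 1 and 3 and in KO-TAC replicate 1, 7 of 9 were in KO-TAC replicate 2 and 6 of 9 in KO-TAC replicate 3, and none was in TAC replicate 2. The share of all genes below their lowest control value in each heart was not counted, so these counts have no background and carry no conclusion about the members. The median SD of log2 CPM over the members was 0.04 in control hearts, 1.85 in TAC hearts and 0.59 in KO-TAC hearts, against 0.17, 0.60 and 0.33 over all genes tested. The members thus varied less than the median gene among control hearts and more than it among loaded ones. The median gene covers genes of all levels, and genes of like abundance were not compared as a set. Some abundant genes outside the members did likewise: the SD of Pln was 0.543% of its mean in control hearts and 110% in TAC hearts, beside 0.685% and 116% for Cs. Others did so less, such as Tnnc1 at 11.7% and 60.2%.

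Cs, at chromosome 10, 128337734 to 128362479 (GRCm38, ENSMUSG00000005683.8), was measured at 1158, 1164 and 1174 CPM in control hearts. In TAC replicates 1, 2 and 3 it was at 286, 1220 and 73.0 CPM. In KO-TAC replicates 1, 2 and 3 it was at 425, 726 and 1068 CPM. The 3 control values lay close together, TAC replicate 2 lay above them, the other TAC hearts far below, and all KO-TAC hearts below every control heart.

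Of the isocitrate dehydrogenase subunits, Idh3a (chromosome 9, 54586334 to 54604661) was measured at 412, 442 and 405 CPM in control hearts, at 155, 462 and 36.6 CPM in TAC hearts and at 187, 363 and 412 CPM in KO-TAC hearts. Idh3b (chromosome 2, 130279309 to 130284547) was at 557, 543 and 569 CPM in control hearts, 317, 664 and 54.4 CPM in TAC hearts and 287, 495 and 540 CPM in KO-TAC hearts. Idh3g (chromosome X, 73778963 to 73786897) was at 296, 315 and 322 CPM in control hearts, 216, 364 and 81.2 CPM in TAC hearts and 145, 285 and 301 CPM in KO-TAC hearts. For all 3 subunits TAC replicate 3 was the lowest heart and TAC replicate 2 the highest, but Idh3g kept 26.1% of its control mean in TAC replicate 3 where Idh3a kept 8.72% and Idh3b 9.78%.

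Ogdh, the most abundant member by CPM (chromosome 11, 6291633 to 6356642), was measured at 2094, 2091 and 2145 CPM in control hearts, 576, 2428 and 160 CPM in TAC hearts and 742, 1602 and 2023 CPM in KO-TAC hearts. Suclg1 (chromosome 6, 73248382 to 73276911) was at 251, 258 and 266 CPM in control hearts, 160, 295 and 27.7 CPM in TAC hearts and 160, 265 and 251 CPM in KO-TAC hearts. Sucla2 (chromosome 14, 73525319 to 73596142) was at 568, 538 and 549 CPM in control hearts, 170, 565 and 30.9 CPM in TAC hearts and 221, 415 and 502 CPM in KO-TAC hearts. Sucla2 reached the lowest share of control of any member, 5.61% in TAC replicate 3, and in TAC replicate 2 it lay within the control range. Suclg1 in KO-TAC replicates 2 and 3 lay within the control range too, and only KO-TAC replicate 1 was far below it.

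Fh1 (chromosome 1, 175600374 to 175625635) was measured at 299, 318 and 325 CPM in control hearts, 160, 362 and 27.9 CPM in TAC hearts and 146, 270 and 299 CPM in KO-TAC hearts. Mdh2 (chromosome 5, 135778480 to 135790398) was at 818, 794 and 831 CPM in control hearts, 537, 962 and 99.5 CPM in TAC hearts and 515, 808 and 775 CPM in KO-TAC hearts. Fh1 tracked the mean of the 9 members most closely of all members, with a root mean square difference of 0.08 log2 units over 9 hearts. Mdh2 kept a larger share of control than Fh1 in TAC replicates 1 and 3 and KO-TAC replicates 1 and 2, for example 12.2% against 8.90% in TAC replicate 3. Genes on the opposite strand overlap Idh3b (Nop56) and Fh1 (Kmo), and their own counts over the whole gene came to 7.47% and 0.298% of those of the member. Nop56 ends at position 130279313 and so shares only the edge of Idh3b, while Kmo starts at 175620381, inside Fh1. The sources used here do not give the strand setting of the counting, so reads within these overlaps cannot be told apart.

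**Figure D1:**
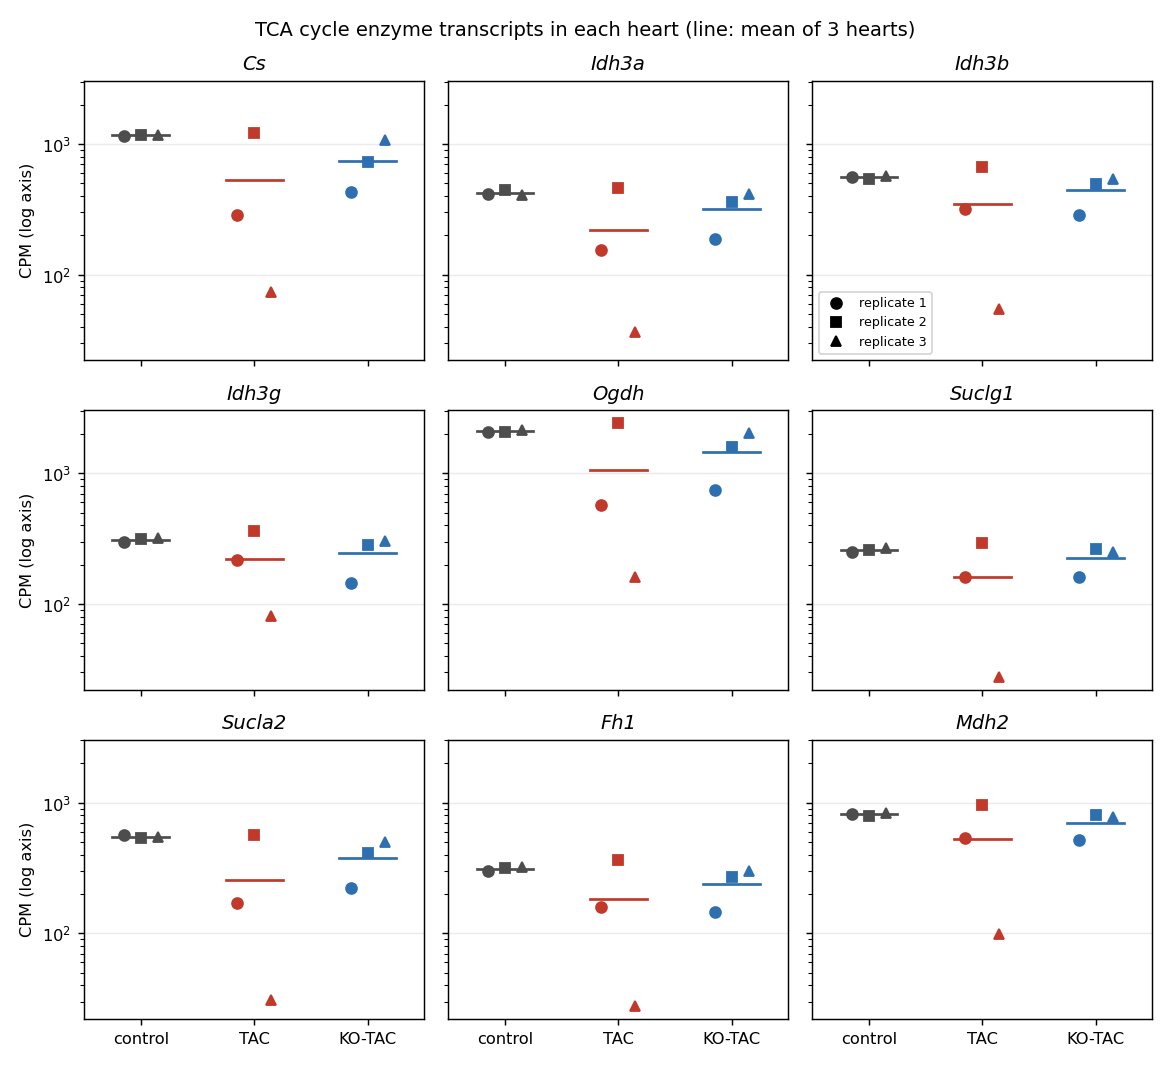
CPM of the 9 TCA cycle transcripts (log axis) in each heart by group, with a line at the mean of 3 hearts and a symbol for each replicate number. Control hearts sit together, TAC replicate 2 sits at or above them, and TAC replicate 3 is the lowest heart for every gene.

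The question of the first comparison was how pressure overload changed the heart transcriptome of WT mice. All 9 members had a lower group mean in TAC than in control hearts, with a median log2 difference of -0.78 (range -1.15 to -0.50) beside a median of 0.03 over all 19051 genes tested, of which 48.5% were lower. None of the 9 reached an adjusted p under 0.05 by the quasi-likelihood test of edgeR, and none had an unadjusted p under 0.05. The background was 0 of 19051 genes passing after adjustment (0% called higher and 0% called lower) and 8.08% lower and 13.2% higher at an unadjusted p under 0.05. The fitted differences were -1.15 (SE 0.80, adjusted p = 0.41) for Cs, -1.11 (SE 0.78, adjusted p = 0.41) for Sucla2 and -1.0 (SE 0.80, adjusted p = 0.47) for Ogdh, while Idh3g had the smallest, -0.50 (SE 0.49, adjusted p = 0.55). The groups overlapped for all 9 members, since TAC replicate 2 was not below the control range for any, while 14.0% of all genes were lower and 14.1% higher without overlap. The fit compares group means, in which the highest heart weighs most.

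The call depended on how the TAC hearts were weighted. Without TAC replicate 2, 4 members passed as lower by edgeR beside 14.0% of all genes: Cs (log2 difference -2.70, adjusted p = 0.017), Ogdh (-2.52, adjusted p = 0.021), Sucla2 (-2.46, adjusted p = 0.027) and Idh3a (-2.14, adjusted p = 0.029). The other 5 then had adjusted p of up to 0.12, and the median over the 9 was a fold of 3.34 lower in place of 1.71. Without TAC replicate 3 the median fold was 1.21 and none passed. DESeq2 called none of the members, beside 2.60% of genes called lower. Limma-voom with quality weights called 7 as lower, beside 19.8% of genes, with the exceptions of Idh3g (adjusted p = 0.073) and Mdh2 (adjusted p = 0.072). That fit gave TAC replicate 1 a weight of 2.48 and TAC replicates 2 and 3 weights of 0.204 and 0.156, so it rests largely on 1 TAC heart.

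Loaded hearts with and without Myc in fibroblasts were set against each other in the second comparison, which shares its TAC hearts with the first. All 9 members had a higher group mean in KO-TAC than in TAC hearts, with a median log2 difference of 0.46 (range 0.14 to 0.57) beside 0.01 over all genes, of which 49.2% were lower. None passed by edgeR, with adjusted p of 0.81 to 0.93 and 0 at an unadjusted p under 0.05, beside 0% of all genes called after adjustment and 2.94% higher and 4.51% lower at an unadjusted p under 0.05. No member separated the groups, which 5.17% of all genes did as higher and 4.80% as lower. DESeq2 and limma-voom with quality weights called none either, beside 0.862% and 5.23% of all genes. The KO-TAC hearts all lay between the TAC extremes: TAC replicate 2 was above, and TAC replicate 3 below, every KO-TAC heart for each of the 9 genes. The sign rested on TAC replicate 3. Without it the median was -0.04 and 7 of 9 members were lower in KO-TAC, with Idh3a (0.06) and Sucla2 (0.05) still higher, and without TAC replicate 2 the median was 1.34 with no member passing (lowest adjusted p = 0.084).

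In the third comparison, of loaded knockout with control hearts, which shares groups with both others, all 9 members had a lower group mean in KO-TAC. The median log2 difference was -0.39 (range -0.66 to -0.20) beside 0.04 over all genes, of which 46.2% were lower. None passed by edgeR (adjusted p of 0.90 to 0.96, 0 at an unadjusted p under 0.05, beside 0% of genes after adjustment and 3.52% higher and 2.24% lower before it), by DESeq2 or by limma-voom with quality weights. Of all genes, DESeq2 called 0.383% and limma-voom 5.2%. The KO-TAC hearts were all below all control hearts for 5 of the 9 members (Cs, Idh3b, Ogdh, Sucla2 and Fh1), a share of 55.6% beside 13.6% of all genes. The gap was small where KO-TAC replicate 3 came close: Idh3b was at 540 CPM there and at 543 CPM in the lowest control heart. Without KO-TAC replicate 1 the median was -0.11, and without KO-TAC replicate 3 it was -0.59.

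**Figure D2:**
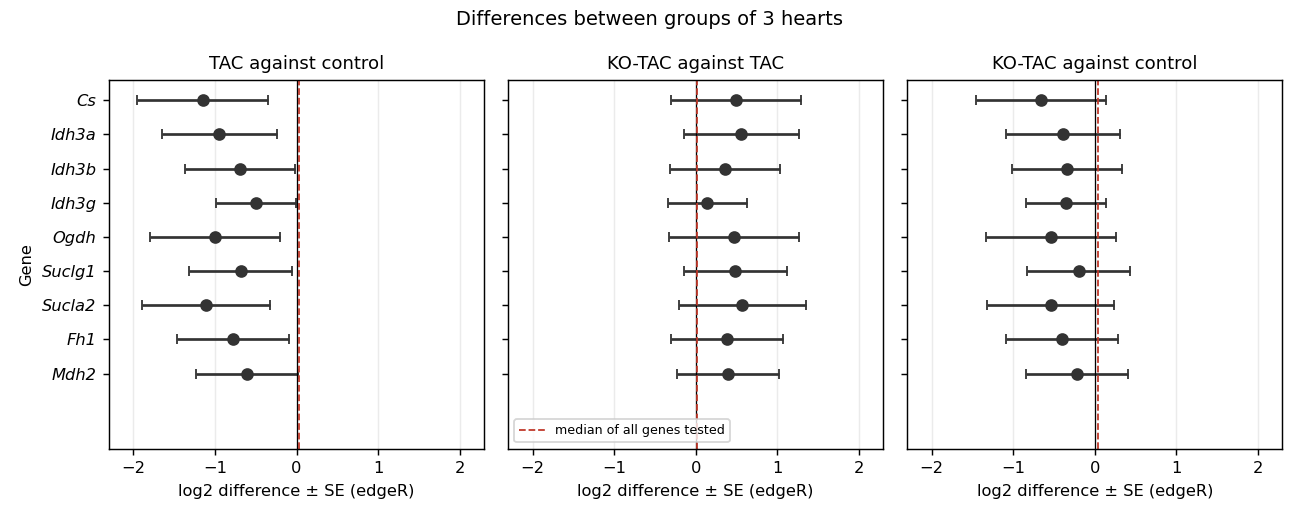
Log2 differences of the 9 transcripts between groups of 3 hearts (points) with their standard errors (bars) from the edgeR fit to 9 libraries, and the median of all genes tested (dashed line). All points lie below 0 in both comparisons with control and above 0 for KO-TAC against TAC, and none passed the test.

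The members did not move by equal amounts, and their order recurred among hearts with low levels. Cs, Ogdh and Sucla2 were the 3 members farthest below the mean of the 9 in 4 of 9 hearts, which were TAC replicates 1 and 3 and KO-TAC replicates 1 and 2. Mdh2 and Suclg1 were among the 3 highest in the same 4 hearts. Relative to the mean of the 9, Cs was at -0.85 log2 units in TAC replicate 1, -0.62 in TAC replicate 3, -0.35 in KO-TAC replicate 1 and -0.44 in KO-TAC replicate 2. Mdh2 was at 0.58, 0.35, 0.44 and 0.23 in the same hearts. The distance from the lowest to the highest member was 0.10 to 0.11 log2 units in control hearts, 1.5 and 2.22 in TAC replicates 1 and 3, 0.85 and 0.72 in KO-TAC replicates 1 and 2, and 0.22 and 0.11 in TAC replicate 2 and KO-TAC replicate 3. These patterns were seen in the data and carry no test. Transcript length runs along with them: the principal transcripts of Idh3g (1331 bases), Mdh2 (1456), Suclg1 (1519) and Idh3b (1616) are the 4 shortest, and the same 4 kept the largest shares of control in TAC replicate 1. Those of Sucla2 (2229), Idh3a (2403), Fh1 (2636), Cs (2926) and Ogdh (4127) are longer. The part of length in this order was not tested.

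**Figure D3:**
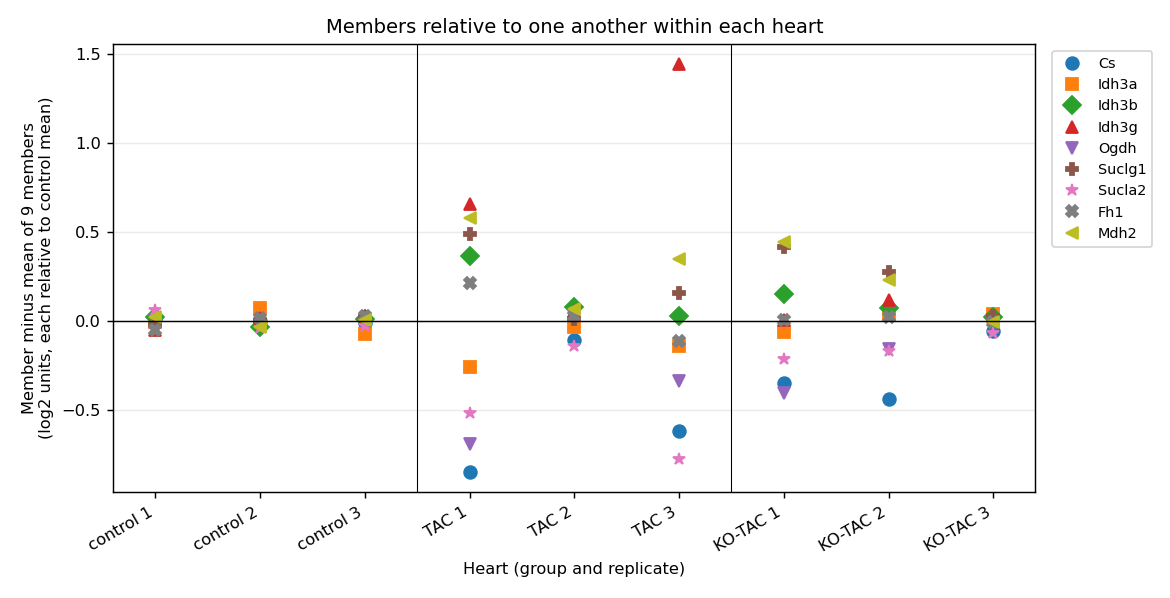
Each member's log2 CPM relative to its control mean, minus the mean of the 9 members in that heart, for each of 9 hearts. Control hearts span 0.10 to 0.11 log2 units, while in TAC replicate 3 the points run from -0.78 for Sucla2 to 1.44 for Idh3g.

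Levels of different genes were compared per length, as CPM per kilobase of the principal GENCODE M21 transcript. In control hearts Mdh2 was highest at 559 ± 12.6 CPM per kilobase, followed by Ogdh at 511 ± 7.36, Cs at 398 ± 2.73 and Idh3b at 344 ± 8.12 (mean ± SD, n = 3 each). Sucla2 at 248 ± 6.83 and Idh3g at 234 ± 9.81 were next, and their ranges just overlapped, since the highest Idh3g heart (241.6) was above the lowest Sucla2 heart (241.3 CPM per kilobase). Idh3a at 175 ± 8.21 and Suclg1 at 170 ± 5.12 overlapped, and Fh1 was lowest at 119 ± 4.99. The order depends on the length used: per kilobase of all annotated exons, Ogdh (387) was above Mdh2 (229) and Cs (202) in control hearts. In TAC hearts the SD was of the size of the mean or larger for several members, Ogdh standing at 256 ± 292 and Mdh2 at 366 ± 296 CPM per kilobase, so the ranges over hearts overlapped widely. Within each of the 9 hearts, Mdh2 was nevertheless the highest and Fh1 the lowest of the 9 members on this scale, for example at 68.4 and 10.6 CPM per kilobase in TAC replicate 3. In KO-TAC hearts Mdh2 (480 ± 110), Ogdh (353 ± 158), Idh3b (273 ± 83.4) and Cs (253 ± 110 CPM per kilobase) overlapped as well.

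Subunits of 1 enzyme kept their proportions in some cases and not in others. The ratio of Idh3a to Idh3b per kilobase was 0.498, 0.547 and 0.478 in control hearts, 0.328, 0.469 and 0.452 in TAC hearts and 0.437, 0.493 and 0.513 in KO-TAC hearts. The ratio of Idh3a to Idh3g was 0.771, 0.777 and 0.697 in control hearts and 0.712, 0.705 and 0.758 in KO-TAC hearts, but 0.396, 0.703 and 0.250 in TAC hearts. It was thus lower in TAC replicates 1 and 3 than in any other heart. Sucla2 over Suclg1 was 1.40 to 1.54 in control hearts, 0.722, 1.31 and 0.762 in TAC hearts and 0.939, 1.07 and 1.36 in KO-TAC hearts, below every control heart in all 6 loaded hearts. The alternative beta subunit, Suclg2 of the GTP-forming ligase, stayed in step with Sucla2: their ratio was 4.41 to 4.64 in control hearts, 4.28 to 4.78 in TAC hearts and 4.44 to 5.06 in KO-TAC hearts, although Suclg2 itself went from 183 to 185 CPM in control to 10.9 CPM in TAC replicate 3. With 3 against 3 hearts an exact permutation test cannot go below 0.1, and these ratios were chosen with the values in view, so none was tested.

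**Figure D4:**
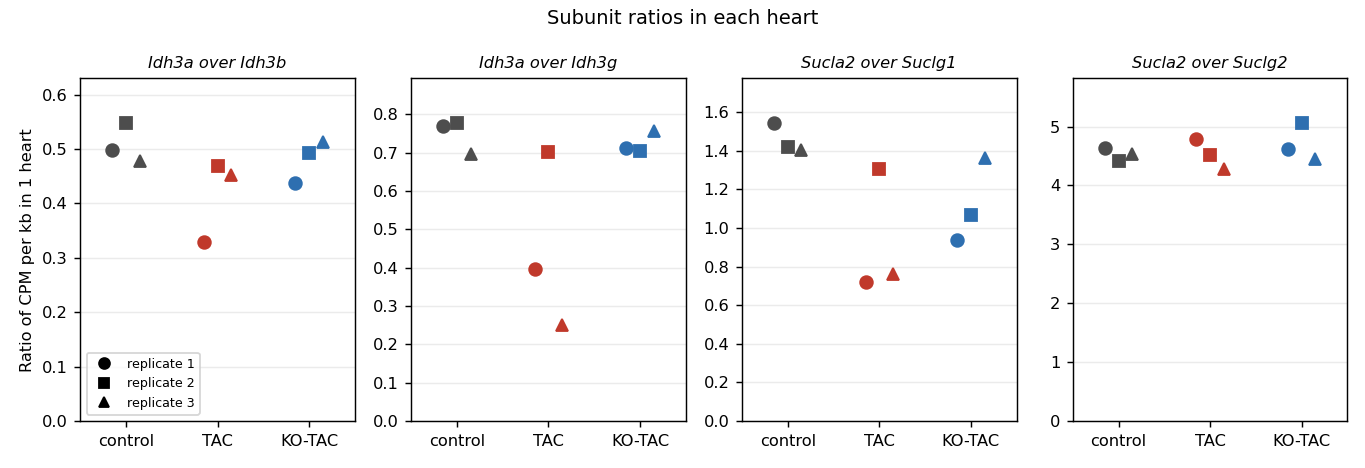
Ratios of CPM per kilobase of enzyme subunits within each heart, by group, with a symbol for each replicate number and axes from 0. Sucla2 over Suclg2 stays between 4.28 and 5.06, while Idh3a over Idh3g is as low as 0.250 and Sucla2 over Suclg1 as low as 0.722 in TAC hearts.

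Markers of heart cell types moved in the same hearts. Relative to the control mean, the mean of the 9 members was -1.18, 0.17 and -3.38 log2 units in TAC replicates 1, 2 and 3, and that of the 14 cardiomyocyte markers was -0.67, 0.22 and -2.75. In KO-TAC replicates 1, 2 and 3 the members were at -1.10, -0.24 and -0.07 and the markers at -0.59, -0.07 and 0.06. The mean of the members was therefore lower than the mean of the markers by 0.51 and 0.63 log2 units in TAC replicates 1 and 3. In KO-TAC hearts it was lower by 0.51, 0.18 and 0.12. The differences were -0.09 to 0.05 in control hearts and -0.05 in TAC replicate 2. Single markers scattered widely around their mean, with log2 differences of -1.52 to 0.30 in TAC against control. In KO-TAC against control 6 of the 14 were higher and 8 lower, so the gap does not hold for each marker. Summed endothelial markers (12 genes) were at 1144 to 1196 CPM in control hearts, 1177 to 2464 CPM in TAC hearts and 1201 to 1336 CPM in KO-TAC hearts. Summed fibroblast markers (10 genes) were at 1580 to 1775, 1611 to 4163 and 1855 to 2246 CPM, macrophage and monocyte markers (11 genes) at 263 to 283, 243 to 518 and 265 to 447 CPM, and erythroid markers (5 genes) at 738 to 1167, 762 to 3475 and 839 to 1216 CPM. Smooth muscle and pericyte markers (8 genes) were at 1166 to 1193, 555 to 1017 and 792 to 1129 CPM and lymphocyte markers (10 genes) at 9.80 to 13.2, 8.58 to 30.3 and 10.6 to 20.9 CPM. Of the 8 smooth muscle and pericyte markers, 5 had a higher mean in TAC than in control (median log2 difference 0.07), while Abcc9 was at 438 to 469 CPM in control hearts and 66.6 to 294 CPM in TAC hearts. None of the markers in these 6 lists was at 0 throughout. Skeletal muscle markers (8 genes) summed to no more than 4.26 CPM in any heart. Of 7 adipocyte markers, summed at 359 to 455, 486 to 1472 and 356 to 612 CPM, Fabp4, which endothelium also expresses, carried nearly the whole sum at 359 to 454, 484 to 1472 and 356 to 610 CPM, Lep and Ucp1 were at 0 in all hearts and Adipoq stayed under 0.30 CPM. With the cardiomyocyte marker level of each heart as a covariate, the median of the members in TAC against control was -0.08 in place of -0.78, with Idh3b (0.0047), Mdh2 (0.055) and Idh3g (0.069) turning to the other sign, and Cs was at -0.51. No member passed with it, beside 0.289% of all genes in TAC against control, 0.0577% in KO-TAC against TAC and 0.042% in KO-TAC against control. Since the marker level also differs between the groups, the part of cell composition in these differences was not tested.

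**Figure D5:**
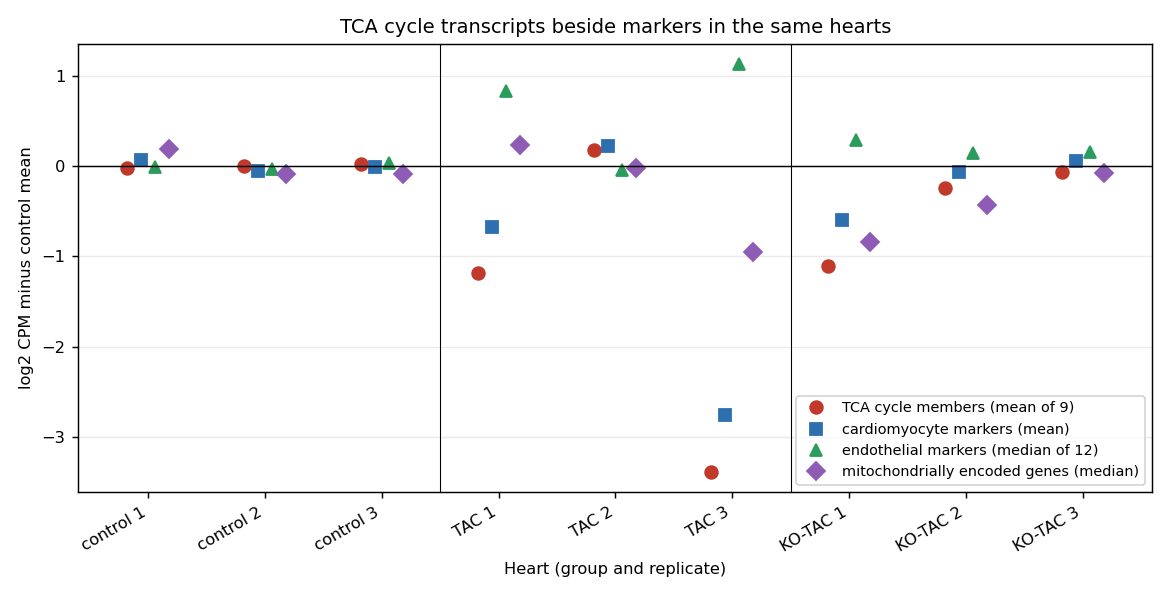
Log2 CPM relative to the control mean in each heart for the mean of the 9 TCA cycle transcripts, the mean of 14 cardiomyocyte markers, and the medians of 12 endothelial markers and of the abundant mitochondrially encoded genes. The TCA mean lies below the cardiomyocyte mean by 0.51 to 0.63 log2 units in TAC replicates 1 and 3 and KO-TAC replicate 1.

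Group means of the rest of the cycle differed largely as those of the members did, but not every gene followed the members in each heart. Sdhb was at 87.4% of its control mean in TAC replicate 1. Mrps36 was at 95.5% there and at 102%, 123% and 111% in KO-TAC replicates 1, 2 and 3. Of 11 other TCA enzyme subunits, all 11 were lower in TAC than in control (median log2 difference -0.87), all 11 higher in KO-TAC than in TAC (0.54) and 10 of 11 lower in KO-TAC than in control (-0.29), and none passed in any comparison. Sdha, the flavoprotein subunit of succinate dehydrogenase, was at 1396, 1393 and 1437 CPM in control hearts, 325, 1429 and 71.9 CPM in TAC hearts and 437, 860 and 1259 CPM in KO-TAC hearts. Sdha had the order of hearts seen for Cs, except that TAC replicate 2 lay within the control range. Idh2, the NADP-dependent isocitrate dehydrogenase, was at 1567 to 1748 CPM in control hearts, 144 to 1914 CPM in TAC hearts and 1079 to 1775 CPM in KO-TAC hearts. Of the 4 assembly factors of succinate dehydrogenase, all 4 had a lower mean in TAC than in control (median -0.27), and all 4 had a higher mean in KO-TAC than in control (median 0.27) and 3 did not overlap with control (12.9% of all genes were higher without overlap). Sdhaf2, which helps attach the flavin, was at 39.2 to 44.9 CPM in control hearts, 20.4 to 47.0 CPM in TAC hearts and 39.3 to 52.2 CPM in KO-TAC hearts, Sdhaf4 at 16.0 to 16.7, 5.96 to 19.5 and 19.9 to 26.1 CPM and Sdhaf1 at 12.0 to 13.2, 5.46 to 15.8 and 13.2 to 18.4 CPM. None of the 4 passed the test.

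Upstream of the cycle, the pyruvate carrier and the core subunits of the pyruvate dehydrogenase complex were lower in TAC than in control for 6 of 6 genes (median -0.73) and higher in KO-TAC than in TAC for 6 of 6 (0.63), with 3 higher and 3 lower in KO-TAC than in control. Pdha1, the catalytic alpha subunit, was at 1058 to 1129 CPM in control hearts, 96.8 to 1125 CPM in TAC hearts and 498 to 983 CPM in KO-TAC hearts, Pdhb at 422 to 482, 75.5 to 534 and 315 to 542 CPM, and Dlat at 334 to 345, 24.9 to 366 and 152 to 334 CPM. Of the 7 kinases and phosphatases that switch the complex off and on, 6 were lower in TAC than in control (median -1.17), 4 of them without overlap (14.0% of all genes) and 2 at an unadjusted p under 0.05 (8.08% of all genes), and none passed after adjustment. The latter, named after their values were seen, were the phosphatase subunits Pdp1 (log2 difference -1.31, adjusted p = 0.11) and Pdp2 (-2.26, adjusted p = 0.14). Pdk4, the kinase induced by fasting, varied more than the members among control hearts (289 to 738 CPM) and was at 43.6 to 469 CPM in TAC hearts and 68.4, 75.6 and 640 CPM in KO-TAC hearts. Pdk2 was at 345 to 386, 29.8 to 422 and 221 to 339 CPM and Pdk1 at 187 to 193, 37.2 to 171 and 107 to 186 CPM.

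Among 16 genes of anaplerosis and the malate-aspartate shuttle, 15 were lower in TAC than in control (median -0.85), 14 higher in KO-TAC than in TAC (0.46) and 14 lower in KO-TAC than in control (-0.41), with none passing. Mdh1, the cytosolic malate dehydrogenase, was at 1378 to 1427 CPM in control hearts, 81.8 to 1593 CPM in TAC hearts and 739 to 1481 CPM in KO-TAC hearts, Got2 at 677 to 747, 55.8 to 797 and 351 to 631 CPM, and Got1 at 516 to 566, 45.1 to 758 and 227 to 584 CPM. The 5 cytosolic counterparts and citrate exporters were mixed, 3 lower and 2 higher in TAC than in control (median -0.25), none passing. Acly, which splits exported citrate in the cytosol, was at 35.0 to 38.1 CPM in control hearts, 34.0 to 47.0 CPM in TAC hearts and 33.1 to 38.6 CPM in KO-TAC hearts. Idh1, the cytosolic isocitrate dehydrogenase, was at 43.5 to 51.4, 18.6 to 31.7 and 30.3 to 41.5 CPM, with both loaded groups below control without overlap, and Aco1 at 30.2 to 35.0, 11.6 to 28.9 and 16.8 to 32.1 CPM.

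Of 16 transcriptional regulators of mitochondrial genes, 12 were lower in TAC than in control (median -0.78), 11 higher in KO-TAC than in TAC (0.34) and 14 lower in KO-TAC than in control (-0.38). In TAC against control 4 had an unadjusted p under 0.05, all lower, beside 8.08% of all genes, and none of the 16 passed in any comparison. Besides Mef2a these were, named after their values were seen, the coactivator gene Ppargc1b (log2 difference -1.56, adjusted p = 0.15), Gabpa (-0.79, adjusted p = 0.16), which encodes an ETS factor, and Tfam (-0.76, adjusted p = 0.23), which encodes the mitochondrial transcription factor A. The 4 regulators with a higher mean in TAC were Nrf1 (0.46), Gabpb1 (0.46), Ppargc1a (0.10, SE 1.06) and Ppard (0.01). Related genes thus differed in sign, as Ppargc1a and Ppargc1b did. Perm1, a muscle regulator of oxidative genes, was at 265 to 306 CPM in control hearts, 40.2 to 385 CPM in TAC hearts and 183 to 328 CPM in KO-TAC hearts. Mef2a, a muscle transcription factor, was at 187 to 194, 85.4 to 131 and 107 to 141 CPM, below control in all 6 loaded hearts. Esrra, which encodes estrogen-related receptor alpha, was at 102 to 117, 53.7 to 130 and 89.0 to 118 CPM.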

How the data were processed

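Total heart RNA was sequenced from directional libraries, per the labels' protocols. The submitters' processing notes name HISAT2 2.2.1 and StringTie 2.2.1, besides SAMtools 1.15, Trim Galore 0.6.10 and DESeq2 1.42.0, and the builds GRCm38 and mm10. The deposited table holds raw counts, whole numbers with unequal totals. Not given in the sources used here are the counting tool, the annotation, the strand setting and the treatment of multi-mapped reads. Columns were matched to samples through the descriptions in the labels. Where a symbol repeats (110 rows), the row of largest total kept it.

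All 9 libraries were fitted at once with edgeR 4.0.16 (R 4.3.3; TMM, filterByExpr at a minimum count of 10, glmQLFit and glmQLFTest, group as the only term, two-sided), with Benjamini-Hochberg adjustment over 19051 genes and a threshold of 0.05. "Passed" refers to it. The biological coefficient of variation was 42.1%. Log2 values per heart used a prior count of 2. The fit was tested on counts simulated with a smaller spread than that of these data, so that test does not measure the power reached here. Alternatives were other factors (RLE, upper quartile, none), DESeq2 1.42.0, limma 3.58.1 (voom with quality weights), other filters (none, or 1 CPM in 3 libraries), 2 groups per fit, a replicate block, removal of mitochondrial genes, a robust fit, a cardiomyocyte covariate and each library left out. Positions and lengths are from GENCODE M21 and upstream sequences from RefSeq.

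The members and lists were chosen with earlier results of these data known. Named genes were the 9 members, Myc, the members of each pathway list that passed (up to 4) or else its 3 of highest CPM, and the 5 genes of at least 10 CPM closest to the mean of the members. Genes named outside this rule (Suclg2, Sdhb, Mrps36, Ssr4, Pdp1, Pdp2, regulators other than Perm1, Mef2a and Esrra, genes overlapping a member, markers) were chosen after their values were seen. A gene selected by the rule is not reported here.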

Additional observations from a re-analysis of the deposited data

How the results depend on the processing

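The replicate numbers, taken from the titles, showed no pairing of the hearts: deviations from group means correlated at -0.25 to 0.12 for same-numbered hearts and at -0.43 to 0.36 for others. TAC replicate 3 was closer to KO-TAC replicate 1 (0.36) than to KO-TAC replicate 3 (-0.25). The column names number the TAC hearts otherwise. By them TAC replicate 2 goes with KO-TAC replicate 3 (0.33) and TAC replicate 1 with KO-TAC replicate 2 (-0.008), and a block by column name was not fitted. With the replicate block 0 members and 0 genes passed in each comparison, as without it, and the median of the members was -1.05, 0.72 and -0.41 in TAC against control, KO-TAC against TAC and KO-TAC against control. Counts of genes that passed, 0 in each comparison by edgeR as reported, were in the same order 1495, 185 and 80 with DESeq2, 7230, 996 and 991 with limma-voom, and 55, 11 and 8 with the cardiomyocyte covariate. In KO-TAC against control they were 2 with no low-count filter and 30 with only the 2 groups. Leaving out 1 library gave 0 to 5477, 0 to 13 and 0 to 4, and members that passed numbered 0 to 4 in TAC against control and 0 to 0 in both others. Limma-voom called 7 members in TAC against control. Of the member differences, Suclg1 in KO-TAC against control turned to 0.0019 with library size alone, which moved the median of all genes from 0.04 to 0.28, and to 0.0017 with the covariate. With the covariate Idh3b, Idh3g and Mdh2 were at 0.0047, 0.069 and 0.055 in TAC against control, and Idh3b, Idh3g, Ogdh, Fh1 and Mdh2 at -0.15, -0.32, -0.019, -0.13 and -0.078 in KO-TAC against TAC. In that comparison leaving out 1 library gave -0.017 to 2.05 for Cs, -0.14 to 1.25 for Idh3b, -0.24 to 0.72 for Idh3g, -0.037 to 1.99 for Ogdh, -0.0037 to 1.26 for Suclg1, -0.12 to 1.34 for Fh1 and -0.091 to 1.14 for Mdh2. The lowest of each came without TAC replicate 3 and the highest without TAC replicate 2, and Idh3g was also below 0 (-0.035) without KO-TAC replicate 3. The cause of these changes was not tested. All other alternatives kept the direction of all 27 member differences, and no alternative beyond limma-voom and the fit without TAC replicate 2 called a member. Each group holds 3 libraries, and the lowest member count was 2392.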

Other observations

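Among 7976 genes outside all lists with at least 10 CPM, the 5 whose log2 level relative to control was nearest to the mean of the 9 TCA transcripts over 9 hearts were Hibadh (a dehydrogenase of valine breakdown; root mean square difference 0.07), Prdx3 (a mitochondrial peroxidase; 0.09), Dhrs4 (a carbonyl reductase; 0.10), Atp5b (the beta subunit of ATP synthase; 0.10) and Ghitm (an inner mitochondrial membrane protein; 0.10 log2 units). Of the members, Fh1 (0.08) and Idh3a (0.11) were about as near, while Cs (0.40) and Idh3g (0.53) were farther away. Hibadh was at -1.30, 0.11 and -3.31 in TAC replicates 1, 2 and 3, and Atp5b at -0.96, 0.16 and -3.24. The likeness is a description over hearts that fall into 3 groups and was not tested.

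Transcripts of the mitochondrial genome were nearer to control than the TCA transcripts in TAC replicates 1 and 3, and on the other side of it in TAC replicate 1. The median of the abundant mitochondrially encoded genes was 0.24, -0.02 and -0.95 log2 units from control in TAC replicates 1, 2 and 3, where the mean of the TCA members was -1.18, 0.17 and -3.38. In KO-TAC replicates 1, 2 and 3 the mitochondrial median was -0.84, -0.43 and -0.08, beside -1.10, -0.24 and -0.07 for the TCA members. Ssr4, whose start lies 131 bases from that of Idh3g on the other strand, was at 24.6, 26.0 and 24.3 CPM in control hearts, 34.4, 26.9 and 26.5 CPM in TAC hearts and 30.3, 30.4 and 27.4 CPM in KO-TAC hearts. Ssr4 was thus above its control range in every TAC and KO-TAC heart. Its values in TAC replicates 3 and 2 lay close together, at 26.5 and 26.9 CPM. Idh3g was lowest in TAC replicate 3, at 81.2 CPM, and highest in TAC replicate 2, at 364 CPM.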
